A study of Mus musculus with 5 samples.

Results

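Among cardiac interstitial cells of adult mice, 424 endothelial cells carried transcripts of Kit, the receptor tyrosine kinase for stem cell factor, and they are described here against endothelial cells of the same libraries in which no Kit transcript was counted. Members were chosen by measured values: a cell was taken where Kit was above 0, Cdh5 (VE-cadherin) or Pecam1 (CD31) was above 0, and both Ptprc (CD45, of leukocytes) and Pdgfra (of fibroblasts) were at 0. These members are 3.87% of the 10960 cells of the series and 8.57% of the 4946 cells that met the same endothelial gate whatever their Kit. The other 4522 gate cells had no Kit UMI (unique molecular identifier, 1 per captured transcript) and served as the pool for matching. The study sorted the cells of digested hearts, cleared of cardiomyocytes, on the surface proteins cKit, DDR2 (a collagen receptor) and CD45. It made 5 droplet libraries from 4 sorts, 1 each for cKit-/DDR2+, cKit+/DDR2+/CD45- and cKit+/DDR2+/CD45+, and replicates 1 and 2 for cKit+/DDR2-. The labels name no strain, sex, genotype, age beyond adult or treatment for any sort, and do not say how many animals went into a library. Members numbered 65 in cKit-/DDR2+, 61 and 132 in cKit+/DDR2- replicates 1 and 2, 134 in cKit+/DDR2+/CD45- and 32 in cKit+/DDR2+/CD45+. Values by library below keep this order.

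Kit is known from blood stem cells, mast cells, melanocytes and the interstitial cells of the gut. Its ligand, stem cell factor (gene Kitl), joins receptor molecules in pairs, and the kinase then signals through Src family kinases, PI3 kinase and the MAP kinase route. In the heart, cells with cKit on their surface were once put forward as progenitors of cardiac muscle, and lineage tracing in mice later placed most of their progeny in the endothelium. Cardiac endothelium is itself of several kinds: capillary cells that take up fatty acids, arterial and venous cells, the endocardium that lines the chambers, lymphatic vessels, and tip cells, which lead vessel sprouts and express Apln (apelin). Cells were parted into kinds in that spirit and by thresholds on the deposited natural log values: Npr3 of at least 1.5 (an endocardial receptor), then Prox1 above 0 (the lymphatic regulator), then Apln of at least 1, with all remaining cells called the other kind. Of the members, 92 were of the Npr3 kind, 38 of the Prox1 kind, 109 of the Apln kind and 185 of the other kind, and 10 met more than 1 of these thresholds.

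Kit lies on chromosome 5 of the mouse build mm10 (GRCm38), chr5:75574916-75656722 on the plus strand in the GENCODE M21 annotation. The gene of Pdgfra lies on one side of it, at chr5:75152292-75198215, and that of Kdr, the main VEGF receptor, on the other, at chr5:75932827-75978458. The stretch of the RefSeq promoter window (GRCm38.p6, 250 bases before to 50 after the start) that lies ahead of the GENCODE gene start is shown because transcripts of this gene define the members, chr5:75574737-75574915, plus strand, with a GC box in capitals.
Kit promoter: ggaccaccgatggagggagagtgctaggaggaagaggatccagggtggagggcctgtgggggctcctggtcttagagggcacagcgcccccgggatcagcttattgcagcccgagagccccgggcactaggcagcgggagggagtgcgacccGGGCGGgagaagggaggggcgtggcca
Over the whole window of 300 bases and both strands, the GC box GGGCGG occurred 1 time, and 35.9% of 27025 mouse promoter windows of this length hold it. The E-box CANNTG also occurred 1 time, in the bases not shown, and 72.1% of windows hold it. The GATA motifs AGATAA and TGATAA had no match in this window, beside 11.4% and 9.26% of all windows.

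Libraries differed in ways that touch these cells. A total of 190 cell barcodes occur both in cKit+/DDR2- replicate 1 and in cKit+/DDR2+/CD45+, where other pairs of libraries share 1 to 3. The copies in cKit+/DDR2+/CD45+ held a median of 622.5 UMIs against 12133.5 in replicate 1, and the copy had a median of 5.21% (4.15 to 7.48) of the UMIs of its partner. Of the 254 gate cells of cKit+/DDR2+/CD45+, 94 were such copies, as were 2 of its 32 members, so the share of its gate cells with Kit was 12.6% with them and 18.8% (30 of 160) without. Without these copies 90 genes passed the test below upward and 104 downward, beside 102 and 117 with them. In the gate cells Xist was listed in cKit+/DDR2- replicate 2 and cKit+/DDR2+/CD45- (473 and 747 CPM) and was at 0 in the other 3 libraries, where the Y-linked Ddx3y stood at 83.8 to 127 CPM. Median UMIs of the gate cells lay between 4406.5 in cKit+/DDR2+/CD45+ and 9357.5 in cKit+/DDR2- replicate 1. In cKit+/DDR2+/CD45+ the Kit-0 gate cells had a median of 787 detected genes and the members 3098, and that gap can set the share of cells with Kit there. No sort was tested against another, since 3 of the 4 have 1 library.

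Most members held a single Kit UMI. Exactly 275 of the 424 had 1, 82 had 2 and 67 had 3 or more, with 8 as the most in a cell. The deposited natural log value of Kit ran from 0.311 to 2.98 over the members, and by construction the cells just outside the rule are at 0. Summed over the members of a library, Kit came to 187, 237, 146, 196 and 175 CPM (UMIs of a gene scaled to a common total), in the order given above, as a direct result of choosing the cells by it. Both endothelial genes were present in 406 members, Cdh5 alone in 9 and Pecam1 alone in 9. Cdh5 reached 1043, 853, 559.7, 872 and 801 CPM in the members and 1013, 722, 453, 888 and 673 CPM in matched cells. All 16 genes of a broader endothelial list had UMIs in the members, and their summed level was 7028 to 9320 CPM by library, beside 6913 to 9611 CPM in matched cells. These genes did not choose the cells, but the matched cells passed the same gate, so a like level does not test the label. Presence of UMIs does not part cell types either, since all genes of a list of 10 macrophage markers also had UMIs in the members.

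Outside the gate lay another 290 cells with Kit, of which 233 had neither Cdh5 nor Pecam1, 41 had an endothelial gene with Ptprc, and 16 had one with Pdgfra. The gate also took in cells of the sort that had excluded surface cKit: in cKit-/DDR2+, 5.48% of gate cells (95% exact interval 4.25 to 6.93) held a Kit UMI. The share was 15.8% (12.3 to 19.8) and 6.84% (5.75 to 8.06) in the 2 cKit+/DDR2- libraries, 11.3% (9.52 to 13.2) in cKit+/DDR2+/CD45- and 12.6% (8.78 to 17.3) in cKit+/DDR2+/CD45+. The 2 libraries of 1 sort thus differed from each other by more than their intervals. As a floor for free RNA in the droplets, 0.900% (0.389 to 1.77) of 889 cells with Pdgfra and no endothelial gene held a Kit UMI, at a median of 13741 UMIs per cell against 8002 in the gate. Of 3701 cells with Ptprc and no endothelial gene 222 held one, up to 22.9% in cKit+/DDR2- replicate 2, and these can include blood lineages that express Kit. Intervals and floors cover counting error only.

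The share of cells with Kit was several times higher in the Apln kind than in any other. Over all libraries, 48.7% (41.9 to 55.4) of 224 gate cells of the Apln kind held Kit, against 8.62% (6.17 to 11.6) of the Prox1 kind, 8.31% (7.19 to 9.53) of the other kind and 4.48% (3.63 to 5.47) of the Npr3 kind. By library the Apln kind stood at 19.4, 66.0, 45.8, 65.0 and 51.6%, so that cKit-/DDR2+ was the lowest, with 12 of 62 cells. In each of the 5 libraries the Apln kind had the highest share, and the Prox1 and other kinds did not differ beyond their intervals in the pooled cells. The Npr3 kind lay below both. It lay above the pooled floor of Pdgfra cells, but 712 of those 889 cells came from cKit-/DDR2+, and within libraries it did not differ from the floor beyond the intervals. In cKit+/DDR2- replicate 2 the Npr3 kind stood at 5.34% (4.18 to 6.71) and the Pdgfra cells at 2.46% (0.510 to 7.02), and in cKit+/DDR2+/CD45- they stood at 2.69 and 2.78%. In cKit-/DDR2+ the Npr3 kind had 0 of 42 cells, with an upper bound of 8.41%, against 0.562%. Kit UMIs of the Npr3 kind were thus not told apart from background within a library. Outside cKit-/DDR2+ the Pdgfra cells numbered 1, 122, 36 and 18 by library, so overlap of such wide intervals does not show equal shares. With each cell thinned to 2000 UMIs, the Apln kind was again the highest, at 17.0% (12.2 to 22.7), and the Npr3 kind the lowest, at 0.948% (0.572 to 1.48). The other kind then stood at 3.15% (2.42 to 4.02) and the Prox1 kind at 2.06% (0.948 to 3.88), the reverse of their unthinned order and within each other's intervals. The Pdgfra cells stood at 0.114% (upper bound 0.634), so the thinned Npr3 kind overlapped with this floor. At 2000 UMIs, 4622 gate cells remained.

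**Figure D1:**
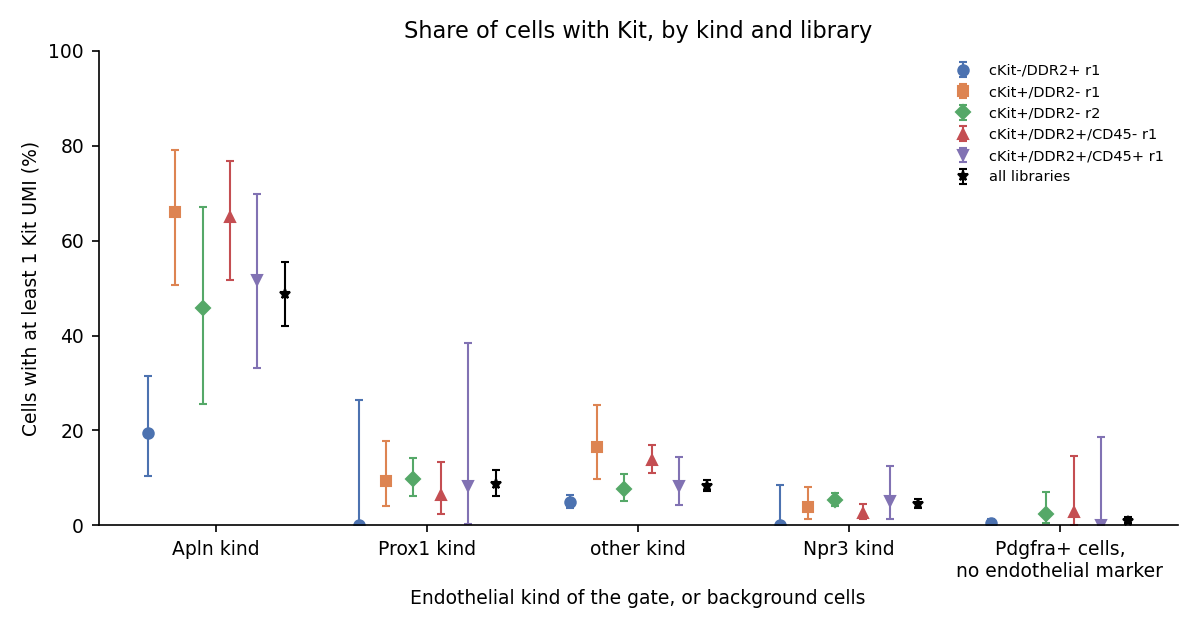
Share of cells with at least 1 Kit UMI (vertical axis, percent, with exact 95% intervals) in each endothelial kind and in Pdgfra cells without endothelial genes (horizontal axis), by library and over all libraries; sets under 10 cells are not drawn. The Apln kind lies between 19.4 and 66.0%, above the other kinds of the same library in all 5.

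Over the pooled cells, the share with Kit was higher at higher levels of Apln. It was 5.90% (5.23 to 6.62) of the 4597 gate cells without Apln, 34.7% (26.4 to 43.7) of 124 cells above 0 and below 1 in natural log units, 39.7% of 146 cells from 1 to below 2, and 65.8% (54.3 to 76.1) of 79 cells at 2 or more. The cells just below the Apln threshold were thus close in this share to those just above it. A single Apln UMI gives a higher value in a cell with fewer UMIs, so the steps also part cells by depth. The shares by step were neither thinned nor matched on depth, and the part of depth in them was not tested. By library the order of these steps held in cKit-/DDR2+, cKit+/DDR2- replicate 1 and cKit+/DDR2+/CD45-. In cKit+/DDR2- replicate 2 both steps below 2 stood at 31.2% (5 of 16 cells each). In cKit+/DDR2+/CD45+ the share was 83.3% (5 of 6), 57.1% (8 of 14) and 47.1% (8 of 17) over the steps above 0, against 5.07% without Apln. These cells include the copies of shared barcodes, whose few UMIs place a single Apln UMI at the highest step. The Apln kind of that library held 16 members and 15 Kit-0 cells with the copies, and 15 and 9 without them. The part of the copies in this order was not tested. Cells with Apln thus had a higher share than cells without it in all 5 libraries, while the order among them did not hold in each. For Npr3 the shares were 11.8% at 0, 8.07% above 0 and below 1.5, 3.68% from 1.5 to below 3, and 62 of 1239 cells at 3 or more. Members of the Apln kind also held more Kit per cell, with 61.5% of them at 2 or more UMIs, beside 30.3% in the other kind, 26.3% in the Prox1 kind and 17.4% in the Npr3 kind. Summed Kit was 237 CPM in Apln members, 192 in the other kind, 149.8 in the Prox1 kind and 119.8 in the Npr3 kind. In cKit+/DDR2+/CD45+ the first 2 stood the other way round, with 186 CPM in Apln members and 215 CPM in those of the other kind. The Apln kind made up 25.7% of members and 2.54% of Kit-0 cells, and the Npr3 kind 21.7% of members and 43.4% of Kit-0 cells. Kit chose the members, so these shares are a description and were not tested.

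The makeup of the members differed between libraries, and also between the 2 libraries of one sort. In cKit-/DDR2+ no member was of the Npr3 or Prox1 kind, with 12 of the Apln and 53 of the other kind. The Npr3 kind was the most common in cKit+/DDR2- replicate 2 (69 of 132 members, 52.3%), the Apln kind in replicate 1 (31 of 61, 50.8%) and in cKit+/DDR2+/CD45+ (16 of 32), and the other kind in cKit+/DDR2+/CD45- (76 of 134, 56.7%). Genes that the thresholds did not use set the kinds apart among members. Members of the Npr3 kind, in the 2 libraries with enough of them, expressed the endocardial genes Cytl1 at 1349 and 2033 CPM and Nrg1 (neuregulin, a growth factor for cardiac muscle) at 137 and 216 CPM, where members of the Apln kind had medians of 6.63 and 0 CPM over the libraries. The Prox1 members of cKit+/DDR2- replicate 2 held 21856 CPM of the lymphatic chemokine Ccl21a and 2144 CPM of Lyve1. Members of the Apln kind held the fatty acid carrier Fabp4 at 8212 to 15215 CPM, which marks capillary cells, and those of the other kind 12368 to 17930 CPM.

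For the comparison across genes, each member was set against 3 Kit-0 gate cells of the same library and kind, nearest in the number of detected genes. This gave 1046 matched cells. In the Apln kind there were too few for 3 each outside cKit-/DDR2+ (16 matched cells for 31 members in cKit+/DDR2- replicate 1, 21 for 39 in cKit+/DDR2+/CD45-). All Kit-0 cells of that kind were then used, without a choice by detected genes, and weighted to the members' kinds. Median detected genes in members and matched cells were 2269 and 2297, 2855 and 2537, 2990.0 and 2967, 2914 and 2789, and 3098 and 2620, so members were the deeper in 4 of 5 libraries. UMIs were summed over members and over matched cells of each library, scaled to CPM and compared as log2(CPM + 10) with library as a block, by limma with p-values adjusted over all genes tested. The added 10 CPM makes differences of low genes look smaller. With 5 libraries, the p-values measure the spread between these libraries, and nothing in the labels says which came from separate animals.

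Of 3174 genes tested, 102 were higher in the Kit-positive cells at an adjusted p under 0.05, or 3.21%, and 117 were lower, or 3.69%. The median difference over all genes was 0.0039 on the log2 scale. All 5 libraries gave the same direction for 100 of the higher and for 110 of the lower genes. The 8 genes that chose the cells or their kinds were not tested. Apln, one of them, remained unequal within the kinds despite the matching: it stood at 103, 446, 75.2, 236 and 486 CPM in the members and 69.6, 195, 23.3, 155 and 207 CPM in matched cells. In the other kind, where Apln lies below the threshold, it was 17.5 to 81.8 CPM by library in members and 2.63 to 10.1 CPM in all Kit-0 cells. In the Apln kind it was 449 to 932 CPM by library in members and 378 to 535 CPM in all Kit-0 cells. Leaving cells with Apln between 0 and 1 out of the other kind left 67 genes higher and 72 lower. The tip and angiogenic list described below kept its count of 10 of 11. That alternative does not change the Apln kind, so it cannot show what remains at equal Apln.

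**Figure D2:**
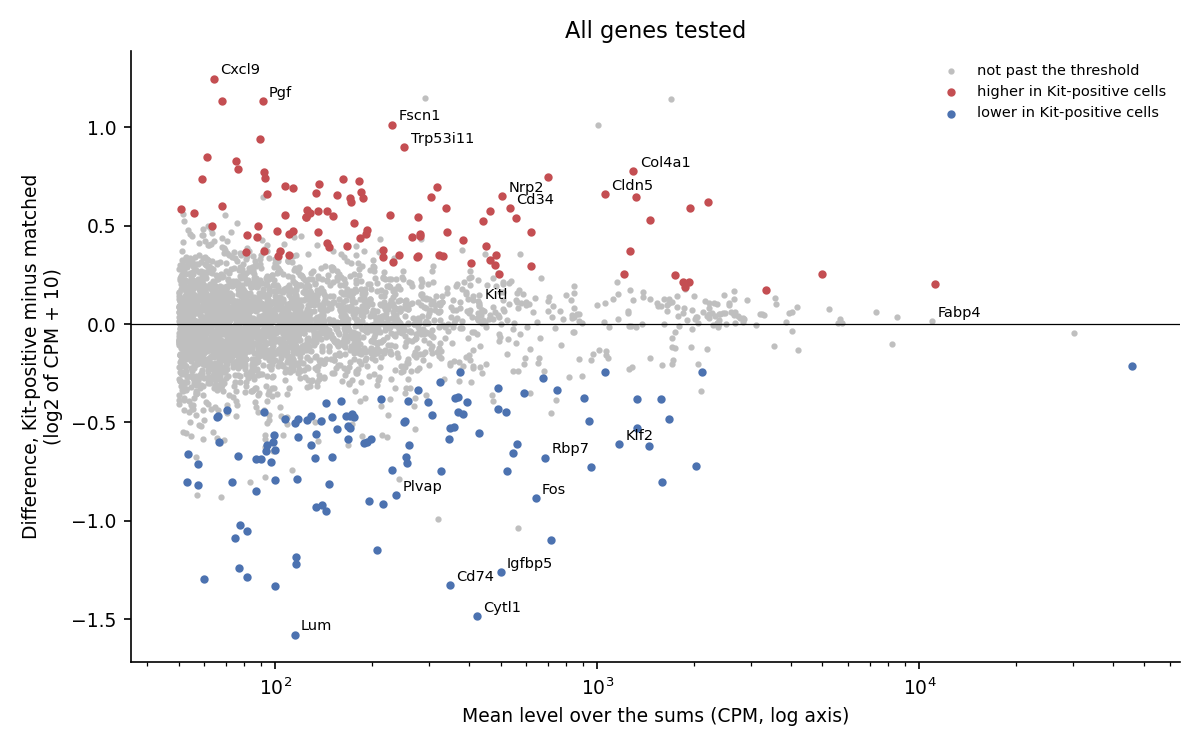
Difference between Kit-positive and matched endothelial cells (vertical axis, log2 of CPM + 10) against mean level (horizontal axis, CPM, log scale) for 3174 genes, one point each; red and blue points passed the test upward (102 genes) and downward (117). The largest differences are near 1.25 upward (Cxcl9) and -1.58 downward (Lum), and abundant genes such as Fabp4 lie near 0.

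The 10 largest differences upward were those of Cxcl9, Pgf, Col15a1, Fscn1, Adm, Trp53i11, Ift122, Lxn, Mest and Col4a1, and 4 of these are on the tip and angiogenic list. Fscn1, an actin-bundling protein of cell protrusions, was at 227, 388, 163, 372 and 378 CPM in the members and 96.8, 207, 55.9, 222 and 192 CPM in matched cells. It was thus higher in each of the 5 libraries, by 1.01 ± 0.10 (SE) on the log2 scale (adjusted p = 0.000643). Pgf, placental growth factor, a ligand of the VEGF receptor Flt1, was at 23.4, 273, 77.6, 75.1 and 219 CPM against 12.7, 109.9, 30.9, 30.5 and 60.6 CPM. Its levels span a wide range between libraries, yet the members lay above their own matched cells in each, by 1.13 ± 0.15 (adjusted p = 0.00158). Trp53i11, a p53-induced membrane protein found among tip cell genes, was at 316, 490.4, 146, 301 and 375 CPM against 171, 292, 62.0, 228 and 134 CPM, a difference of 0.90 ± 0.13 (adjusted p = 0.00188). Col4a1, the collagen IV chain of basement membranes, was the most abundant of the 10 largest, with 1569, 1726, 688, 2010 and 2183 CPM against 1068, 1189, 393, 1264 and 854 CPM. That is 1.71-fold on the fitted scale (0.78 ± 0.10, adjusted p = 0.00149), again in every library.

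Adm (adrenomedullin, a vasodilator peptide) was higher by 0.94, Col15a1 (a collagen next to the basement membrane) by 1.13, Ift122 (a component of ciliary transport) by 0.85, Lxn (latexin, a carboxypeptidase inhibitor) by 0.83 and Mest (an imprinted gene) by 0.79, with adjusted p from 0.00513 to 0.0251. Cxcl9, a chemokine induced by interferon gamma, had the largest fitted difference upward, 1.25 ± 0.30 (adjusted p = 0.0251). It was at 49.1, 124, 64.0, 137 and 54.0 CPM in the members and 5.94, 24.5, 7.56, 134 and 42.3 CPM in matched cells. The difference was 1.89 to 2.07 in the first 3 libraries and 0.03 and 0.29 in the cKit+/DDR2+ libraries, so its size rests on the former. In Lxn the library cKit+/DDR2+/CD45+ stood apart, as given in the closing section.

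**Figure D3:**
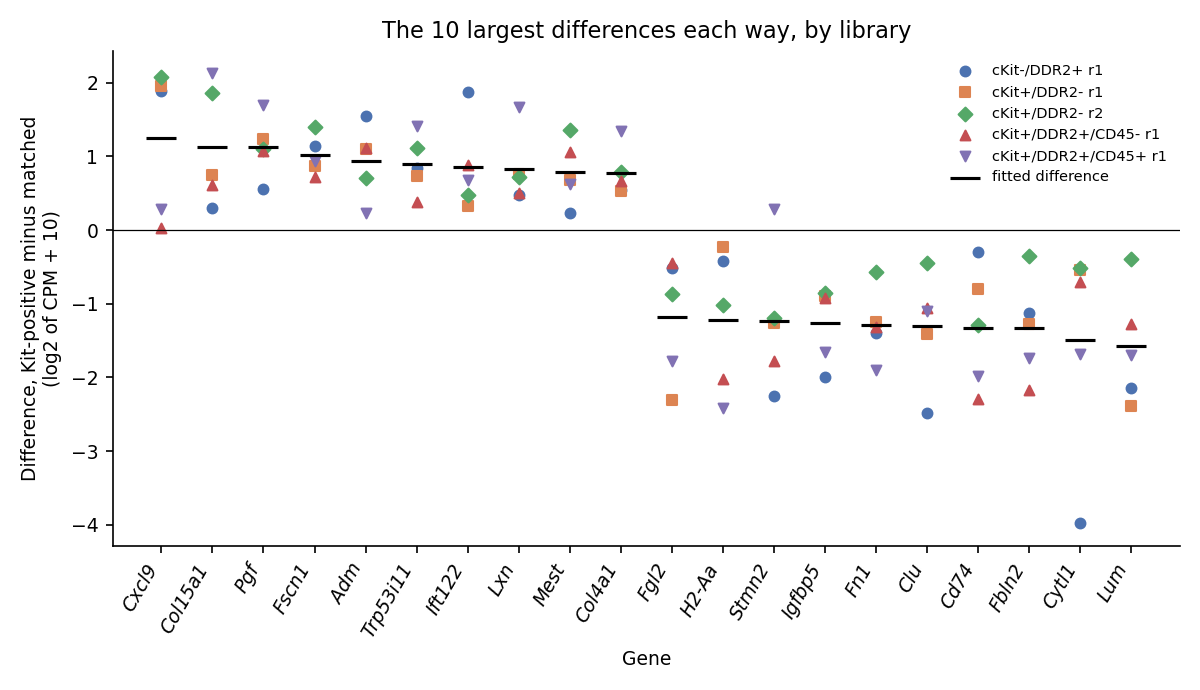
Difference between Kit-positive and matched cells (vertical axis, log2 of CPM + 10) in each of the 5 libraries (symbols) and as fitted (black bars) for the 10 genes with the largest differences each way (horizontal axis). Symbols of the 10 higher genes all lie above 0, down to 0.03 for Cxcl9, and those of the 10 lower genes below 0 except Stmn2 in cKit+/DDR2+/CD45+.

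Most tested genes of the tip and angiogenic list were higher in the members. Of its 17 genes, Apln set a kind and was not tested, and 11 were tested. Of these 10 were higher, 1 was lower and none missed the threshold, beside 3.21% higher over all genes. The list was chosen with earlier results of these data known. It includes Apln, which stayed higher in members than in matched cells in all 5 libraries, and the part of that imbalance was not tested. The list's median difference was 0.75, beside 0.0039 for all genes tested. Besides those above, Col4a2 (0.75), Lamb1 and Lamc1 (laminin chains, 0.71 and 0.48), Mcam (CD146, an adhesion molecule, 0.75), Cd34 (a surface sialomucin of capillary and tip cells, 0.59) and Nes (nestin, an intermediate filament protein, 0.54) were higher. The exception, Plvap, forms the diaphragms of fenestrated vessels and was lower (-0.87). Cd34 was at 638, 771, 262, 653 and 880.0 CPM in the members and 478, 643, 162, 385 and 474 CPM in matched cells, so the members were higher in each library although replicate 2 of cKit+/DDR2- was low in both. Summed over the list without Apln, members held 2495 to 6577 CPM by library and matched cells 1763 to 4260 CPM, with members above their own matched cells in all 5. In the VEGF and angiopoietin list of 9 tested genes, Nrp2 (neuropilin 2, a coreceptor for VEGF, 0.65) and Pgf were higher, and Flt1 (VEGF receptor 1, -0.61) and Ptprb (VE-PTP, a phosphatase of the Tie2 receptor, -0.55) were lower, beside 3.21% higher and 3.69% lower over all genes. Kdr missed the threshold at 0.14 (adjusted p = 0.288) and Nrp1 at -0.02 (adjusted p = 0.935). Nrp2 was at 598, 719, 385, 635 and 747 CPM in the members and 271, 576, 267, 424 and 443 CPM in matched cells, higher in each library. Flt1 was at 706, 277, 564, 412 and 264 CPM in the members and 1038, 379.9, 724, 837 and 437 CPM in matched cells, lower in each library.

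The 10 largest differences downward were those of Lum, Cytl1, Fbln2, Cd74, Clu, Fn1, Igfbp5, Stmn2, H2-Aa and Fgl2. Lum (lumican) was at 25.7, 12.6, 221, 40.9 and 38.1 CPM in the members and 148, 108, 294, 113 and 146 CPM in matched cells, a difference of -1.58 ± 0.23 (adjusted p = 0.00188). Cytl1, a secreted protein abundant in the endocardium, was at 2.34, 271, 824, 230.4 and 172 CPM against 185, 400.3, 1177, 382 and 574 CPM. It was lower in each library (-1.49 ± 0.40, adjusted p = 0.046), from -3.98 in cKit-/DDR2+, where the members held 1 UMI, to -0.51 in cKit+/DDR2- replicate 2. Igfbp5, a binding protein for insulin-like growth factors, was at 35.1, 269, 876, 324 and 143 CPM against 169.8, 508, 1583, 624 and 471 CPM (-1.26 ± 0.16, adjusted p = 0.00149). Fbln2 (fibulin 2, -1.33), Fn1 (fibronectin, -1.28) and Clu (clusterin, -1.30) were also lower. Markers of fibroblasts moved with these genes: Dcn (decorin) was lower (-1.10), and Lum is itself on that list. Of the list's 3 tested genes 2 were lower, beside 3.69% lower over all genes. Summed over the fibroblast list without Pdgfra, members held 275 to 1874 CPM and matched cells 718 to 2905 CPM, with members below in all 5 libraries. Both sets have Pdgfra at 0, and the part of fibroblast RNA in these differences was not tested.

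Genes of antigen presentation by MHC class II were lower in the members. All 3 tested genes of that list passed: Cd74 (the invariant chain, -1.33), H2-Aa (-1.22) and H2-Ab1 (-0.93), with adjusted p from 0.00587 to 0.0335, beside 3.69% lower over all genes. Cd74 was at 2.34, 21.6, 95.1, 59.5 and 537 CPM in the members and 5.09, 44.7, 246, 330.1 and 2144 CPM in matched cells. It was low in all cells of the first library and highest in the sort gated on CD45. Macrophage markers were also highest there: summed over their list they came to 1709 CPM in members and 5288 CPM in matched cells of cKit+/DDR2+/CD45+, although Ptprc is 0 in both. In the other 4 libraries the sum was 7.01 to 143 CPM in members and 6.79 to 141 CPM in matched cells. None of the 3 tested macrophage genes passed, with Lyz2 at -0.99 (adjusted p = 0.116), and the part of macrophage RNA in the difference of Cd74 was not tested. Without cKit+/DDR2+/CD45+, 1 of 2 MHC class II genes tested passed. By limma 0 of 3 passed where cells had to hold both Cdh5 and Pecam1, although all 3 still lay below 0. Only 1 of 3 passed without cKit+/DDR2- replicate 2, without cKit+/DDR2+/CD45-, with 1 matched cell, with thinned cells and with the mean over cells. With at least 2 Kit UMIs 0 of 2 passed. Within single kinds, 3 of 3 passed in the other kind, 0 of 2 in the Apln kind and 0 of 3 in the Npr3 kind.

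Immediate early genes and the flow-induced factors Klf2 and Klf4 were lower in Kit-positive cells. Of the 19 genes of that list, 10 were lower, none was higher and 9 missed the threshold. This stands beside 3.69% lower over all genes, and the median was -0.48. The count lower was 5 with thinned cells, 6 with at least 2 Kit UMIs, 4 with no filter and 14 with weights by members. Within single kinds it was 5 of 19 in the other kind, 2 in the Apln kind and 0 in the Npr3 kind. There 18, 16 and 18 of the 19 lay below 0. Fos, a subunit of the transcription factor AP-1, was at 278, 379, 1003, 231 and 467 CPM in the members and 573, 872, 1316, 479 and 827 CPM in matched cells. It was lower in each library (-0.88 ± 0.10, adjusted p = 0.00149). Jun, its partner, was lower (-0.48 ± 0.05, adjusted p = 0.000643), and Fosb, Atf3, Ier2, Ier3, Zfp36 and the phosphatase gene Dusp1 were lower, with differences from -0.68 to -0.28. Klf2 was at 1571, 941, 842, 647 and 651 CPM against 2337, 1140, 1267, 1098 and 1189 CPM, a difference of -0.61 ± 0.08 (adjusted p = 0.00149). Klf4 was at 631, 347, 450.2, 288 and 254 CPM against 918, 666, 722, 415 and 558 CPM (-0.75 ± 0.09, adjusted p = 0.00149). These genes also respond to tissue digestion, to which every library was exposed, and the part of that response was not tested.

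Among lists of vascular beds, the capillary list had the median nearest to 0, and the venous and endocardial lists had the lowest medians. Of 13 capillary genes tested, 1 was lower, Rbp7 (a retinol-binding protein of capillaries, -0.68 ± 0.08, adjusted p = 0.00149), and the list's median was -0.11. Fabp4 was at 16408, 9534, 5357, 13866 and 8686 CPM in the members and 16966, 8962, 4764, 16509 and 8047 CPM in matched cells, a difference of 0.01 with a standard error of 0.05. Cd36 (a fatty acid transporter) stood at -0.11 and Gpihbp1 (which holds lipoprotein lipase on capillaries) at 0.22, neither past the threshold. In the arterial and Notch list of 10, the Notch ligand Dll4 was higher (0.47, adjusted p = 0.012), beside 3.21% higher over all genes. Stmn2 (-1.24) and Bmx (a kinase of arterial endothelium, -0.82) were lower, beside 3.69% lower. Of 8 venous genes 2 were lower, namely Plvap (-0.87) and Bgn (biglycan, -0.61), beside 3.69% lower over all genes, with a median of -0.58, while Vwf (von Willebrand factor) stood at -1.04 with an adjusted p of 0.093. Without cKit+/DDR2+/CD45-, and likewise without cKit+/DDR2+/CD45+, 1 of the 8 venous genes was lower. With thinned cells 0 of 8 were lower. Within single kinds, 4 of 8 venous genes were lower in the other kind, 0 of 7 in the Npr3 kind and 0 of 5 in the Apln kind.

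Of 10 endocardial genes 3 were lower (Cytl1, Cdh11 and Plvap), beside 3.69% over all genes, the median was -0.65, and all 10 lay below 0. That count was 1 without cKit+/DDR2+/CD45-, 1 without the shared barcodes and 1 with a pseudocount of 1 CPM. It was 2 without cKit+/DDR2- replicate 1 or cKit+/DDR2+/CD45+, and all 10 lay below 0 each time. It was 1 with thinned cells and 2 with at least 2 Kit UMIs, with 9 of 10 below 0 in both. Within single kinds, 5 of 8 tested endocardial genes were lower in the other kind, and all 8 lay below 0. In the Npr3 kind 0 of 13 were lower and 7 lay below 0. In the Apln kind 0 of 2 were lower and 0 lay below 0. Of 8 lymphatic genes 1 was lower, Fgl2 (-1.18), and the lymphatic markers Lyve1 and Mmrn1 stood at -0.31 and -0.18, not past the threshold. These lists share Plvap and Vwf and are not independent. Genes of other beds were present in Kit-0 cells of the other kind, which the thresholds do not part: Ccl21a had a median over libraries of 984 CPM there and 17.3 CPM in members of that kind, Cytl1 310.2 and 34.6 CPM, and Vwf 352 and 150.0 CPM. Among 15 pan-endothelial genes tested, Cldn5 (claudin 5, a tight junction protein) was higher by 0.66 (adjusted p = 0.0028). Flt1, Eng (endoglin, -0.49), Emcn (endomucin, -0.33) and Ptprb were lower, and the median was 0.03. Over all genes 3.21% were higher and 3.69% lower.

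**Figure D4:**
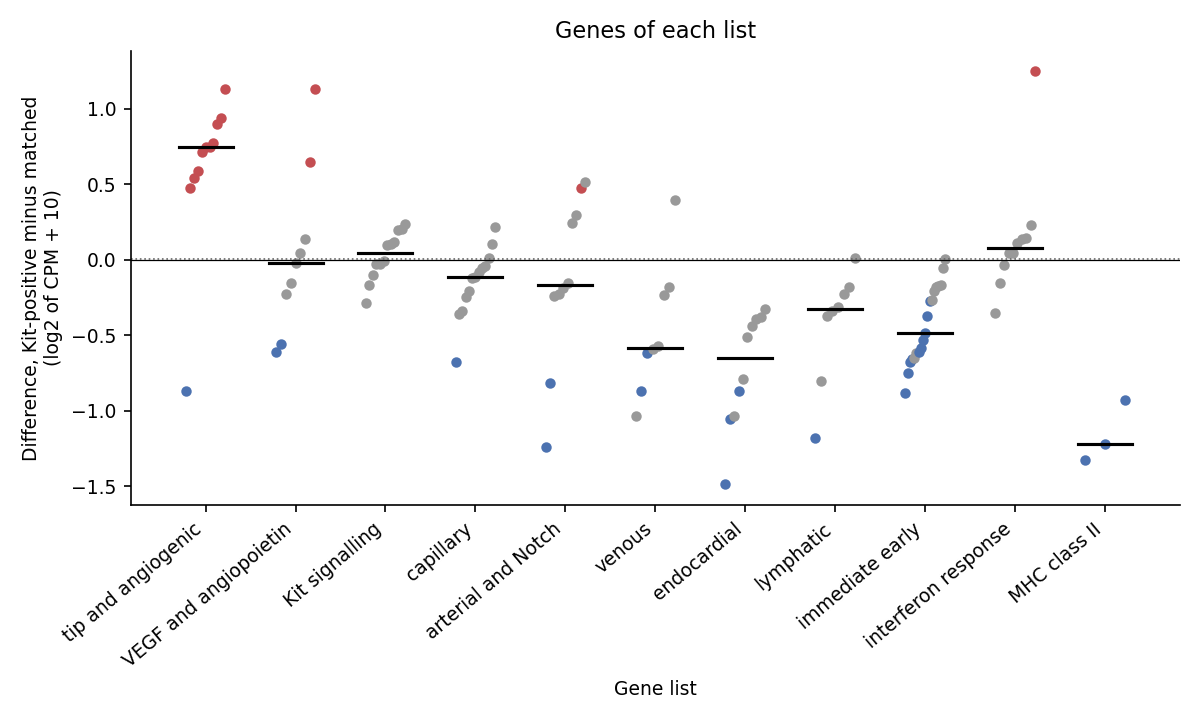
Difference between Kit-positive and matched cells (vertical axis, log2 of CPM + 10) for the tested genes of 11 gene lists (horizontal axis), one point per gene; red passed the test upward, blue downward, grey neither, black bars are list medians and the dotted line the median of all genes. The tip and angiogenic genes lie at a median of 0.75, the immediate early genes at -0.48, and the Kit signalling genes at 0.05.

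No tested gene of the pathway of Kit itself passed the threshold. The Kit signalling list has 24 genes, of which 12 were tested and none was called. Their median was 0.05, with a range from -0.28 to 0.23. Over all genes 3.21% were higher and 3.69% lower. At such shares, a lack of calls in lists this short is no result about the pathway. The ligand gene Kitl was at 697, 350.3, 236, 509 and 394 CPM in the members and 701, 345, 191, 540.3 and 316 CPM in matched cells. Its difference was 0.11 ± 0.08 (adjusted p = 0.507), with members above their matched cells in 3 of 5 libraries. Fyn and Lyn, Src family kinases recruited by Kit, stood at 0.20 and 0.23, and Stat3 at -0.01. None of 5 tested transcription factors known to act on Kit in blood cells was called: Fli1 at -0.02, Lmo2 at 0.11, Zfpm1 at -0.26 and Gata2 at -0.32 (adjusted p = 0.214). None of 4 other receptor tyrosine kinase genes was called, with Fgfr1 at 0.25, Igf1r at 0.06, Ryk at 0.15 and Ephb4 at -0.23. The 5 tested genes of ERK feedback, which track MAP kinase activity, ran from -0.15 (Dusp6) to 0.31 (Spred1 and Spred2) with none called. In the whole fit 675 genes had an unadjusted p under 0.05, and a miss does not show that levels were equal.

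Genes put forward as marks of vascular progenitors went both ways. Of 12 tested, Cd34, Nes and Mcam were higher, all of them also on the tip list, and Eng and Cd200 (-0.39) were lower, while Ly6a (Sca-1) stood at -0.38 and missed the threshold (adjusted p = 0.103). Over all genes 3.21% were higher and 3.69% lower, and the median of that list was -0.15. Of the cardiac progenitor factors, 3 of 11 could be tested and none was called: Mef2c at 0.13, Wt1 at 0.32 and Gata6 at -0.39. The defining early factors Nkx2-5 and Isl1, and Tbx18, had no UMI in any member. Of 16 proliferation genes, Pcna alone was high enough to test and stood at 0.19 (adjusted p = 0.557). Summed over that list, members held 182 to 410.2 CPM by library and matched cells 108 to 206 CPM, higher in all 5, and 15 of its 16 genes were too low to test singly.

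Marker genes of mast cells, Schwann cells and melanocytes, which can bear Kit, were near 0 in the members. Of 9 mast cell genes, 6 had no UMI in any member, among them Cpa3, Mcpt4 and Fcer1a, and the sum of the list was 3.59 to 15.2 CPM by library, beside 7.15 to 14.1 CPM in matched cells. Of 8 genes of Schwann cells and melanocytes, 7 had no UMI in any member, and the sum was at most 4.68 CPM. The list of type 1 dendritic cells summed to 25.7 to 91.9 CPM in members and 29.7 to 115 CPM in matched cells. Its gene Irf8, a transcription factor, was at 14.0 to 57.2 CPM in members and above the matched cells in all 5 libraries, too low to test, and the part of dendritic cell RNA was not tested. Cardiomyocyte genes summed to 44.5 to 142 CPM against 33.4 to 128 CPM. The mural cell genes Rgs5 and Abcc9 stood at 0.06 and 0.02, and the list summed to 159 to 1127 CPM in members and 225 to 1316 CPM in matched cells. Of 10 tested interferon response genes, Cxcl9 alone was higher, beside 3.21% higher over all genes. The median was 0.08, with Gbp2 at 0.14 and Bst2 at -0.03.

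The differences were also taken within single kinds, with matched cells chosen in the same way where there were enough. In the Apln kind, 8 of 3042 genes were higher (0.263%) and 11 lower (0.362%). The 8 include Pgf (1.82, from a mean of 78.5 CPM in matched cells to 225 in members), Mcam (1.22), Lxn (1.33) and Fscn1 (0.91), and the actin regulators Tmsb10 and Pfn1. The 11 include Klf4 (-1.29), Flt1 (-1.14), Klf2 (-1.06), Rbp7 (-0.92), Cd36 (-0.65) and Fabp4 (-0.39), so that 3 capillary genes were lower here, where Fabp4 and Cd36 did not pass over all kinds. In 4 of 5 libraries the Kit-0 cells of this kind were few, 13 to 21, so all were used and none was chosen by detected genes. They were shallower than the members, for example with medians of 1975 detected genes against 2920 in cKit+/DDR2- replicate 2. In cKit+/DDR2+/CD45+ the Kit-0 cells of this kind numbered 15 with the copies of shared barcodes and 9 without them. The fit of the Apln kind was not run without these copies. The parts of depth and of the copies in these calls were not tested.

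In the other kind, 61 of 3120 genes were higher (1.96%) and 90 lower (2.88%), in 5 libraries. Of 10 tip and angiogenic genes tested there 7 were higher, among them Cd34 (0.96), Trp53i11 (1.31), Col4a1 (1.11) and Nes (1.06). In the Apln kind 2 of 10 such genes were higher, and in the Npr3 kind 0 of 6, with 4 of the 6 above 0. In the Apln kind Nes stood at 0.05 and Cd34 at 0.32, without a call. Cldn5 was higher by 1.43 in the other kind and stood at 0.13 in the Apln kind. Genes lower in the other kind included Cytl1 (-2.62), Dcn (-3.01), Lum (-2.78), Cd74 (-2.05) and Fos (-1.49), along with Klf4 (-0.87) and Klf2 (-0.93). In the Npr3 kind, with 6, 69 and 13 members in 3 libraries, 0 of 3021 genes were called in either direction (0%) by limma and 119 had an unadjusted p under 0.05. There Klf4 stood at 0.05, Flt1 at 0.09, Col4a1 at 0.33 and Cytl1 at -0.15. Whether differences differ between kinds was not tested, because the planned test needed 15 members of both kinds in 2 libraries and a single library had them.

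**Figure D5:**
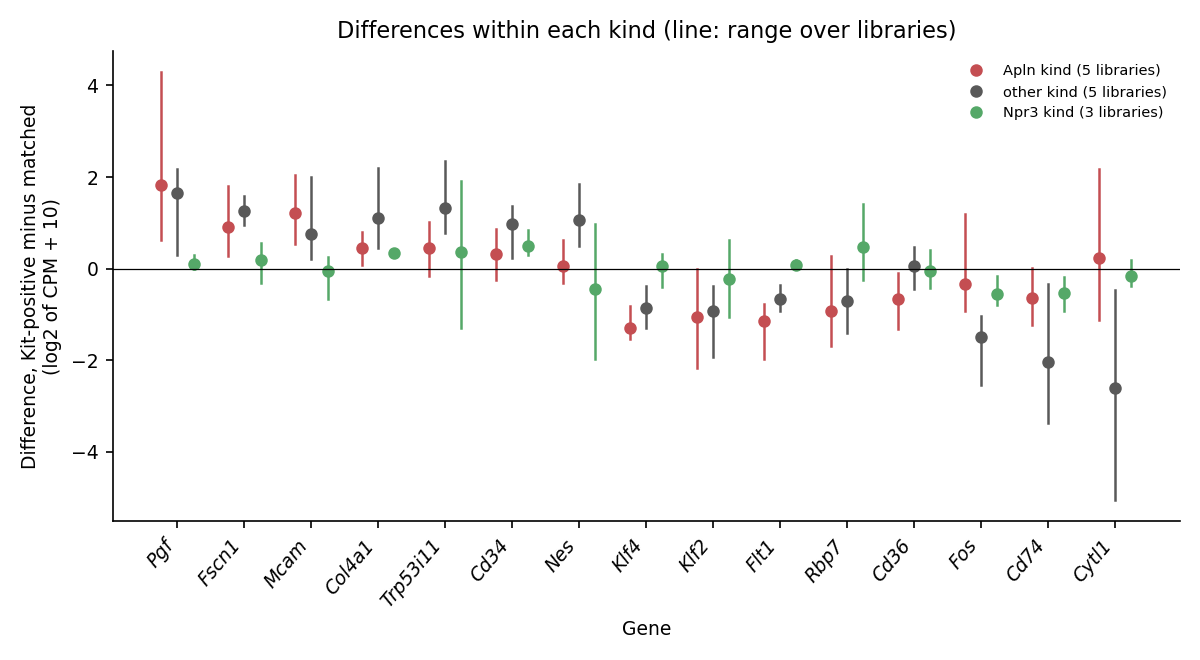
Difference between Kit-positive and matched cells (vertical axis, log2 of CPM + 10) for 15 genes (horizontal axis) within the Apln, other and Npr3 kinds; points are means over libraries and lines run from the lowest to the highest library. Klf4 lies at -1.29, -0.87 and 0.05 in these kinds, and Cytl1 and Cd74 have their lowest means in the other kind.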

How the data were processed

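The 5 libraries were made with droplet-based 3-prime chemistry, and the submitters' processing notes name mm10, Cell Ranger (its version is not given in the sources used here) and Seurat 4.0.4. Judged from the values, the authors deposited the natural log (ln) of 1 plus UMIs scaled to 10000 per cell. UMIs came back whole within 0.01 in 100% of values, and cells with under 200 genes, under 500 UMIs or over 15% mitochondrial UMIs were left out. Doublets were not called, and leaving out cells above the 95th percentile of UMIs was an alternative. A gene not listed in a table was set to 0.

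Each member was matched to 3 Kit-0 cells of its library and kind, nearest in detected genes, without reuse. Where a kind had too few, all of its Kit-0 cells were used, weighted so that each kind kept the members' weight. Libraries with at least 20 members entered. Sums with a mean of at least 50 CPM were tested as log2(CPM + 10) with limma 3.58.1 (R 4.3.3, trend), library as block, and Benjamini-Hochberg adjustment over all genes. The sums were tested as log values because the deposited unit is ln. Lists (26, with 320 genes) are described by counts and medians, and 1 gene of the venous list is not reported here. Genes were named by rule: the 10 largest called differences each way, up to 4 genes of each list with the highest mean CPM, and list genes past the threshold. The 10 exclude haemoglobins, Xist, genes of the Y chromosome, of mitochondria and of ribosomes, and predicted genes. Members, kinds and lists were chosen with earlier results of these data known. The fit was tested on simulated data. Scripts ran under Python 3.11.15 (pandas 2.3.3, numpy 2.4.6, scipy 1.17.1, matplotlib 3.10.9). Binomial intervals are exact Clopper-Pearson at 95%. Alternatives are given in the closing section.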

Additional observations from a re-analysis of the deposited data

Results flagged for a closer look

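Over 115 genes, the differences of the 5 libraries were searched for a library far from the other 4, by Dixon's test at 95%, which chance meets in about 1 of 20 groups, and 10 genes were marked. In cKit-/DDR2+ the haemoglobin genes Hbb-bs (5.69), Hba-a1 (5.55) and Hbb-bt (5.78) stood far above the other libraries, where none exceeded 0.34 on the log2 scale. A single member of that library held 6975 of the 7098 Hbb-bs UMIs of its 65 members. In the same library Cgnl1 stood at -1.06, where the others lay between -0.31 and -0.13, and Pfn1 at 0.152, where the others lay between 0.50 and 0.57. In cKit+/DDR2- replicate 1 Lyn stood at -0.30 (others 0.26 to 0.48), Fabp5 at -0.50 (others -0.08 to 0.05) and Mmrn1, a lymphatic gene, at -1.38 (others 0 to 0.26). In cKit+/DDR2+/CD45+ Lxn stood at 1.67 (others 0.48 to 0.77) and Mef2c at -0.23 (others 0.14 to 0.28). Of these genes, Lxn and Pfn1 passed the test over all libraries.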

How the results depend on the processing

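The counts of 102 genes higher and 117 lower stayed within 1.5 times under pseudocounts of 1 and 50 CPM, a filter at 20 CPM, 1 matched cell, all Kit-0 cells, matching on UMIs, leaving out cells of more than 1 kind, the deepest cells or the shared barcodes, both endothelial markers, weights by members, a minimum of 5 members, and Npr3 above 0 left out of the other kind. They were 15 and 7 with no filter (more genes tested), 30 and 43 with at least 2 Kit UMIs (3 libraries), 15 and 28 with cells thinned to 2000 UMIs, 30 and 41 with the mean over cells, and 67 and 72 without cells of Apln between 0 and 1, an alternative chosen after seeing the data, as were the single kinds, the run without shared barcodes and that with Npr3 above 0 left out. The single kinds gave 0 and 0 (Npr3), 8 and 11 (Apln) and 61 and 90 (other). Without the replicate block, that is without pairing members and matched cells of a library, 0 and 0 genes passed with limma, with 138 at an unadjusted p under 0.05. Where no construction shows it, the cause was not tested. Leaving out 1 library gave 58 to 93 genes higher and 55 to 114 lower, with the lowest of both without cKit+/DDR2+/CD45-, where 9 of 11 tip and angiogenic genes were still higher. Of the named genes called with all libraries, 15 of 60 missed the threshold without it, 12 of 60 without cKit+/DDR2+/CD45+, 11 of 61 and 6 of 58 without cKit+/DDR2- replicates 1 and 2, and 2 of 61 without cKit-/DDR2+. More did so in other runs: 34 of 59 with thinned cells, 34 of 59 with 2 Kit UMIs, 29 of 60 with the mean over cells, 52 of 61 with no filter and 61 of 61 with no block. The count of tip and angiogenic genes higher was 10 of 11 under all alternatives on all kinds except no filter (1), 2 Kit UMIs (5), thinning (4), the mean over cells (6), no block (0) and that library.

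Of named genes, Dll4 turned to -0.0073 with thinned cells. In the Apln kind Fabp4 (-0.39, called there), Dcn (0.15), Atf3 (0.23) and Zfp36 (0.018) turned sign, and in the Npr3 kind Igfbp5 (0.21), H2-Aa (0.39), Eng (0.035), Flt1 (0.086), Ptprb (0.17), Lamc1 (-0.65), Klf4 (0.048), Sparc (-0.15) and Tmsb10 (-0.15). The share of gate cells with Kit fell with depth, to 1.64 to 6.67% by library at 2000 UMIs and 0.992 to 4.58% at 1000, and with both endothelial markers it was 5.92 to 19.9%. The test of kinds against each other was not run. With 1 to 3 Kit UMIs in most members, a Kit-0 cell is not shown to lack Kit.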

Other observations

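Further genes past the threshold, picked after their values were seen, encode parts of the matrix, its receptors and the cytoskeleton. Nid2 (nidogen 2, a basement membrane linker) was higher in Kit-positive cells by 0.77, Sparc (a collagen-binding matrix protein) by 0.62, Lama4 (the laminin alpha 4 chain) by 0.55, and the integrin genes Itga1 and Itga6 by 0.47 and 0.45, each in 5 of 5 libraries and with an adjusted p from 0.00188 to 0.0293. Tmsb10 (thymosin beta 10, which binds actin monomers) was at 1339, 3397, 1415, 2322 and 3206 CPM in the members and 918, 2448, 1001, 1490.0 and 1815 CPM in matched cells, a difference of 0.59 ± 0.06 (adjusted p = 0.000643). Myh9 (non-muscle myosin IIA, 0.58), Pfn1 (profilin, 0.47), Tubb5 (0.35) and Actb (0.25) were also higher in each of the 5 libraries. In the Npr3 kind alone Sparc and Tmsb10 stood at -0.15 each, without a call.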
